A study of Colocasia esculenta with 9 samples.

Results

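In leaves of 3 cultivars of taro (Colocasia esculenta), 51 gene models had no RNA-seq fragment in any library of one cultivar while every library of both other cultivars held them. Of these, 27 were undetected in Palau 10, 13 in Sam-07 and 11 in Niue. The rule asked for 0 fragments in all 3 libraries of a cultivar and at least 1 CPM (the usual counts-per-million scale, here relative to all fragments the library had on gene models) in all 6 libraries of the others. Of the 57034 gene models it was applied to, 27762 had at least 1 fragment and 14874 reached 1 CPM in all 9 libraries. The counts of all 9 libraries chose these gene models, so their zeros, their levels and their number are descriptions and carry no test.

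Taro, an aroid eaten for its corms and leaves, is multiplied clonally. Plants of one crop species often differ in which genes their genomes carry, and genes found in some lines and missing from others are called dispensable or variable genes. A gene can also be present everywhere and be transcribed in some lines only, or differ so much in sequence that its reads no longer map to the reference. Fragment counts do not separate these cases.

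The cultivars were Niue (libraries 2, 3 and 4), Palau 10, which the labels also call Ngerruuch, and Sam-07, also called Samasama (libraries 1, 2 and 3 each). All plants started as tissue culture plantlets and were vegetative at 8 months, after growth under controlled light (12 h per day), temperature (27 °C) and humidity (85%). RNA came from 4 g of the 2 youngest leaves and was dried for 40 h for shipping, so whole leaf tissue was measured, and fewer cells of a type and less RNA per cell cannot be told apart. The labels do not say whether replicates came from separate plants, so the spread behind the p-values is that of these samples and may be technical. No names or products come with the gene models in the files, so they are given by identifier, scaffold and position (counted from 1), and the tissue label was not checked against marker genes.

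The libraries held 5468567 to 18175384 fragments assigned to gene models, 26797140 over Niue, 43479381 over Palau 10 and 37784800 over Sam-07. A count of 0 over a cultivar allows a level of up to 3 fragments, which is 0.069 CPM for Palau 10, 0.0794 CPM for Sam-07 and 0.112 CPM for Niue and covers counting error only. Palau 10, with the most fragments in all, also had the most gene models undetected in it alone. Replicate pairs with Palau 10 replicate 3 or Sam-07 replicate 2 differed most within their cultivars, with a chi-square of 176 to 260.2 per degree of freedom against 41.4 and 51.7 for the remaining pairs. In Niue the pairs with replicate 2 gave 115 and 242 and the other pair 35.7. Without Palau 10 replicate 3 the rule found 29 gene models undetected in Palau 10, 15 in Sam-07 and 14 in Niue. Without Sam-07 replicate 2 it found 27, 18 and 11, and without Niue replicate 2 it found 27, 14 and 16. Each of these lists held all the gene models found with 9 libraries. That was certain in advance, because leaving out a library only removes a condition of the rule.

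The first question was how complete the absence was. Of the 15261 gene models that met the limit of 1 CPM throughout Niue and Sam-07, 0.177% had no fragment in Palau 10. The share was 0.0849% of 15315 for Sam-07 and 0.0725% of 15180 for Niue. Gene models with 1 to 3 fragments were far fewer than those with none in Palau 10 (8 against 27). In Sam-07 (10 against 13) and Niue (7 against 11) they were nearer in number. In Palau 10, 8 more gene models had 1 to 3 fragments, 1 had more than 3 fragments but under 1% of the level in the others, and 17 lay between 1% and 10%. The same classes held 10, 4 and 37 gene models in Sam-07 and 7, 2 and 29 in Niue. In Palau 10 the class without a fragment thus held more gene models than each class between it and 10%, whereas in Sam-07 and Niue the class from 1% to 10% was larger.

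**Figure D1:**
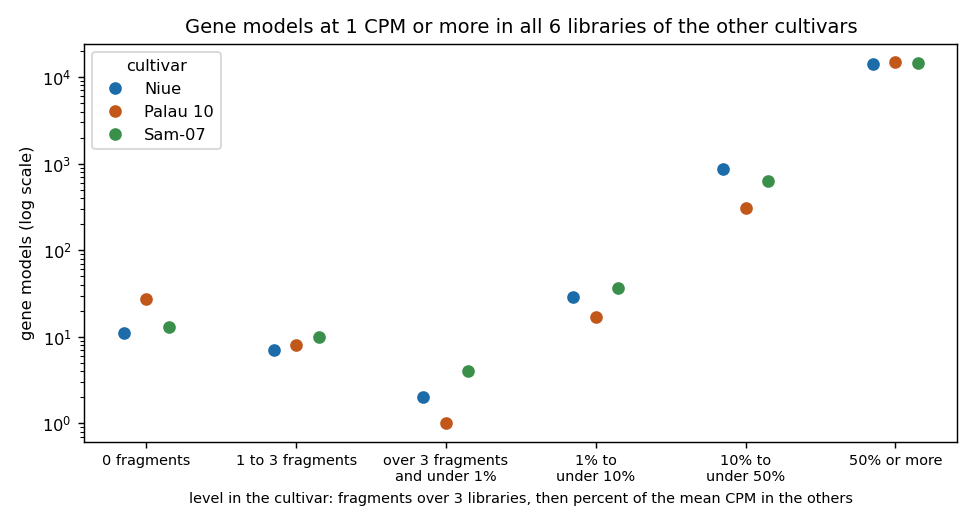
Number of gene models (log scale) by their level in one cultivar, among those that met the limit of 1 CPM throughout the other cultivars. Each point is 1 cultivar. The first 2 classes are fragments over the 3 libraries, and the others are the pooled CPM as a percent of the mean CPM in the other cultivars. The counts dip between 0 fragments (27 in Palau 10, 13 in Sam-07, 11 in Niue) and the class at 50% or more (14903, 14628 and 14262).

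At the mean level of the other cultivars, the libraries without a fragment would have held 59.5 to 3097 fragments per gene model, with a median of 159. Taro_040912, undetected in Niue, had the fewest expected, at 59.5. Nearest to the limit of 1 CPM inside the rule were Taro_026175 (lowest library 1.05 CPM) and Taro_050424 (1.10 CPM) for Palau 10, Taro_049427 (1.07 CPM) and Taro_051689 (1.10 CPM) for Sam-07, and Taro_007781 (1.35 CPM) and Taro_040912 (1.38 CPM) for Niue. Just outside it lay Taro_000441 and Taro_055375 (both 0.811 CPM) for Palau 10, Taro_048570 (0.918 CPM) and Taro_015418 (0.782 CPM) for Sam-07, and Taro_015265 (0.640 CPM) and Taro_008963 (0.498 CPM) for Niue. Outside the limit of 0 fragments, a single fragment kept out Taro_005275 and Taro_026421 for Palau 10, with 11.6 and 6.51 CPM in the others. A single fragment also kept out Taro_032405 and Taro_021497 for Sam-07, with 27.2 and 6.88 CPM, and Taro_052616 and Taro_046833 for Niue, with 26.9 and 1.98 CPM. The zero limit therefore leaves out some gene models that were nearly as low.

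Libraries that played no part in a choice were looked at next. The rule was applied without 1 library of the cultivar, and the gene models it found were then looked up in that library. Those with 0 fragments in all 3 libraries are found whichever is held out. The 27, 13 and 11 below are therefore the same gene models each time, and the hold-outs of a cultivar are not separate support. The shares of all gene models include them, and replicates that may be technical are not known to be independent. For Palau 10, the rule without replicate 1 found 29 gene models, of which 27 (93.1%) had 0 fragments in replicate 1, against 0.203% of all gene models at 1 CPM in the other cultivars. With replicate 2 held out, 27 of 28 (96.4%, against 0.21%) had none, and with replicate 3 held out, 27 of 29 (93.1%, against 0.341%). For Sam-07, 13 of 14 (92.9%) had none in replicate 1, 13 of 18 (72.2%) in replicate 2 and 13 of 15 (86.7%) in replicate 3, against 0.124% to 0.163% of all. For Niue, 11 of 16 (68.8%) had none in replicate 2, 11 of 13 (84.6%) in replicate 3 and 11 of 12 (91.7%) in replicate 4, against 0.0922% to 0.145%. The lowest shares were in the deepest library of Niue and of Sam-07. The 21 gene models with a fragment in the held-out library had 1 to 4 fragments there, where 10.8 to 494 were expected at the level of the other cultivars. On the expressing side, no gene model found without 1 of the 6 libraries had 0 fragments in that library. The share that reached 1 CPM there was lowest for Niue with Palau 10 replicate 3 held out, at 11 of 14 (78.6%). Over all gene models at 1 CPM in the remaining libraries of Palau 10 and Sam-07, 15180 of 15450 reached it there. The other shares were 86.7% to 100%. At 86.7%, for Sam-07 with the same library held out, 13 of 15 reached it, against 15315 of 15613 over all gene models. Both shares lay below those over all gene models.

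**Figure D2:**
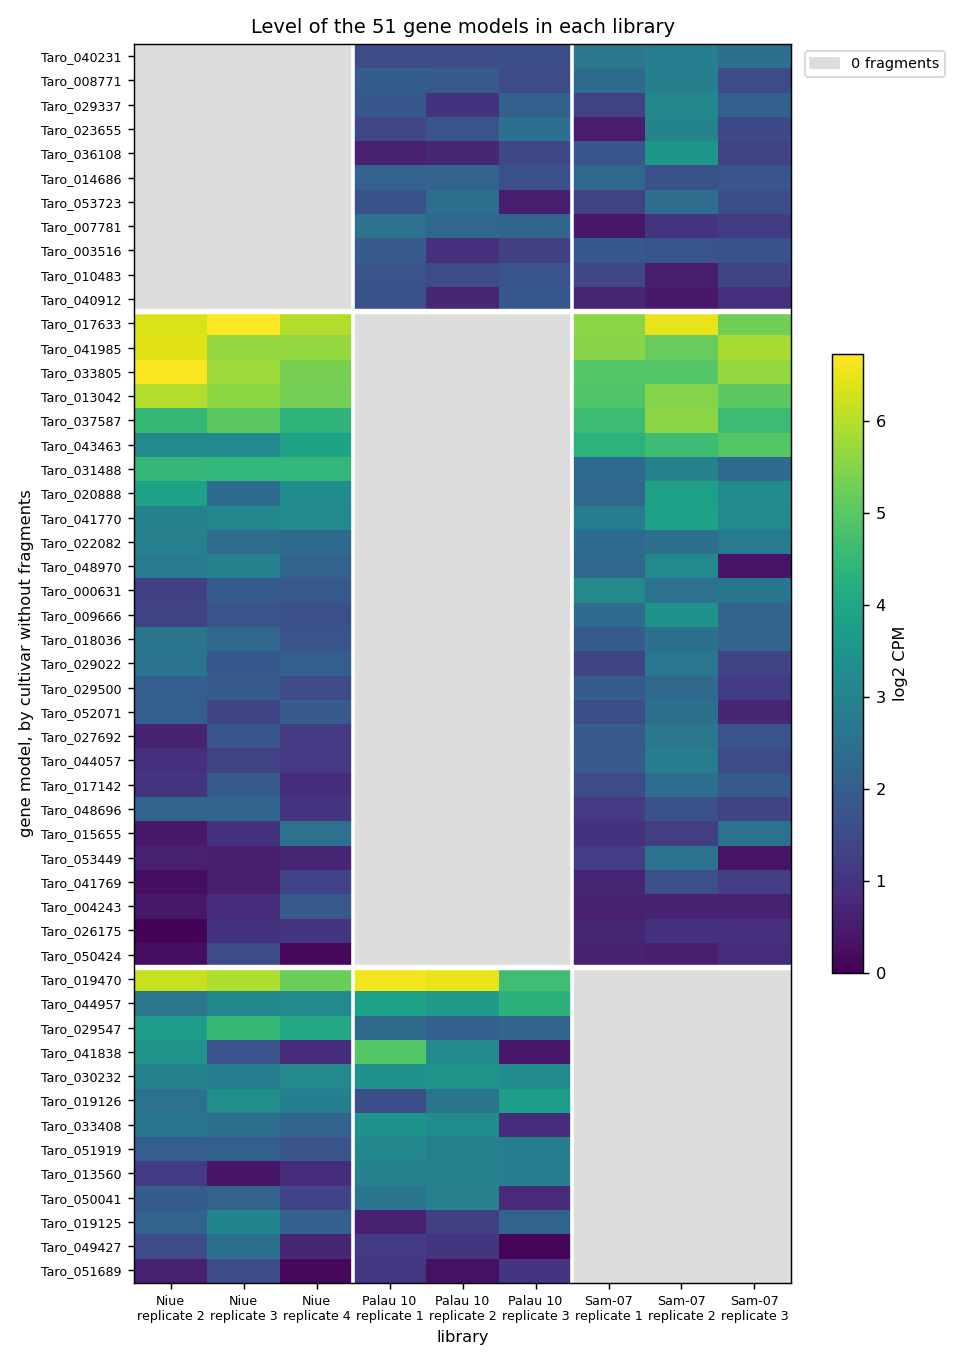
Level of the 51 gene models (rows) in the 9 libraries (columns), as log2 CPM in colour, with grey for 0 fragments. Rows are grouped by the cultivar without fragments, Niue at the top, then Palau 10 and Sam-07, and ordered by mean CPM in the others. The highest values are in the Palau 10 and Sam-07 groups, while the gene models undetected in Niue do not exceed 11.8 CPM in any library.

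The 27 gene models undetected in Palau 10 covered the widest range of levels. Their mean over the 6 libraries of Niue and Sam-07 ran from 1.67 to 71.2 CPM with a median of 4.7 CPM, and 12 of them reached 5 CPM and 5 reached 20 CPM. Per kilobase of exon (FPKM, CPM divided by the summed exon length in kilobases) they ran from 1.31 to 134, with a median of 6.56. The FPKM beside each position below is the mean over the 6 libraries of the other cultivars and allows for exon length. Ranges and the order of gene models in CPM do not. Taro_017633 (TARO_scaffold_000809, 168425 to 177066, plus strand, 10 exons, 25.3 FPKM) had 82.1, 106 and 61.8 CPM in Niue replicates 2, 3 and 4, and 47.3, 90.7 and 39.1 CPM in Sam-07 replicates 1, 2 and 3. It was high in all 6 libraries, the cultivars overlapped, and Palau 10 was at least 1032-fold lower when set at 3 fragments. Taro_041985 (TARO_scaffold_004295, 98768 to 104254, plus strand, 7 exons, 43.5 FPKM) had 85.9, 50.1 and 51.2 CPM in Niue and 46.8, 35.98 and 58.4 CPM in Sam-07, in the same replicate order. These also overlapped, and Palau 10 was at least 793-fold lower. Taro_033805 (TARO_scaffold_002612, 71016 to 74152, plus strand, 3 exons, 134 FPKM) had 104, 53.6 and 40.8 CPM in Niue and 31.2, 30.3 and 50.4 CPM in Sam-07. It was also at 0 fragments in Palau 10, at least 748-fold lower. With only 386 bp of exon, it was the highest of the 51 gene models per length, and every Niue and Sam-07 library was above 30 CPM.

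The next 6 gene models undetected in Palau 10 had means of 9.33 to 43.1 CPM. Taro_013042 (TARO_scaffold_000516, 25921 to 36884, plus strand, 10 exons, 27.7 FPKM) had 62.2, 48.2 and 40.2 CPM in Niue and 29.7, 45.01 and 32.9 CPM in Sam-07, and Palau 10 was at least 624-fold lower. Taro_037587 (TARO_scaffold_003282, 29581 to 31843, minus strand, 3 exons, 31.6 FPKM) had 22.8, 32.5 and 20.9 CPM in Niue and 24.5, 46.99 and 24.7 CPM in Sam-07. Both gene models overlapped between the cultivars, and Taro_037587 was highest in Sam-07 replicate 2. Taro_043463 (TARO_scaffold_004708, 17060 to 22022, plus strand, 11 exons, 7.01 FPKM) had 9.38, 9.21 and 14.99 CPM in Niue and 20.6, 25.1 and 31.01 CPM in Sam-07, where every library lay above those of Niue. Taro_031488 (TARO_scaffold_002237, 189824 to 196301, plus strand, 5 exons, 7.96 FPKM) had 22.6, 22.03 and 21.9 CPM in Niue, close to one another, and 4.96, 8.03 and 4.93 CPM in Sam-07, all below Niue. Niue was thus highest, Sam-07 intermediate and Palau 10 at 0 fragments. Taro_020888 (TARO_scaffold_001047, 64826 to 68541, plus strand, 5 exons, 3.26 FPKM) had 14.6, 5.10 and 9.69 CPM in Niue and 4.78, 14.2 and 9.51 CPM in Sam-07, so the cultivars overlapped with a wide spread in both. Taro_041770 (TARO_scaffold_004236, 40664 to 43293, plus strand, 5 exons, 11.8 FPKM) varied less, with 7.74, 8.71 and 9.14 CPM in Niue and 7.12, 14.4 and 8.93 CPM in Sam-07.

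The other 18 gene models undetected in Palau 10 had means of 1.67 to 5.90 CPM in the other cultivars. Within Sam-07, replicate 2 was the highest library for 20 of the 27, with a median of 6.27 CPM against 3.88 and 4.58 CPM in replicates 1 and 3. Sam-07 replicate 2 is also the deepest library and one that stands apart, and its part in these levels was not tested. Leaving out Sam-07 replicate 2 cannot drop any of the 27 from the rule, and no gene model was added. Taro_048970 (TARO_scaffold_006795, 30873 to 33720, minus strand, 5 exons, 2.41 FPKM) had the widest spread within a cultivar among these 27, at 4.87, 9.02 and 1.29 CPM in Sam-07 against 6.95, 7.89 and 4.39 CPM in Niue. Its 1.29 CPM in Sam-07 replicate 3 came from 11 fragments. Taro_029022 (TARO_scaffold_001908, 2325 to 2519, plus strand, 1 exon, 21.4 FPKM) was the only one of the 51 with a single exon, of 195 bp, and had 5.90, 3.62 and 4.02 CPM in Niue and 2.61, 6.27 and 2.58 CPM in Sam-07.

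Among the 13 gene models undetected in Sam-07, 1 stood apart per length, at 32.1 FPKM, against 1.11 to 12.5 FPKM for the others. Taro_019470 (TARO_scaffold_000940, 2794 to 6192, plus strand, 7 exons, 32.1 FPKM) had 72.1, 61.5 and 37.5 CPM in Niue and 97.7, 90.6 and 25.4 CPM in Palau 10, so that Palau 10 replicate 3 was the lowest of the 6 libraries. Sam-07 was at least 808-fold lower. The next, Taro_044957 (TARO_scaffold_005180, 73672 to 75205, plus strand, 3 exons, 9.73 FPKM), had 6.36, 8.88 and 9.14 CPM in Niue and 14.1, 12.2 and 20.04 CPM in Palau 10, with every Palau 10 library above Niue. Taro_029547 (TARO_scaffold_001969, 202596 to 208918, minus strand, 5 exons, 9.87 FPKM) showed the opposite order, with 12.9, 22.9 and 16.6 CPM in Niue and 4.98, 4.19 and 4.55 CPM in Palau 10. Taro_041838 (TARO_scaffold_004255, 122393 to 123418, minus strand, 3 exons, 10.6 FPKM) was the least steady, with 11.2, 3.29 and 1.83 CPM in Niue and 30.5, 9.07 and 1.35 CPM in Palau 10, a 22.6-fold range within Palau 10. The libraries of the 4 gene models so far thus gave Palau 10 above Niue, below it, or overlapping with it. Taro_030232 (TARO_scaffold_002064, 51932 to 56243, minus strand, 4 exons, 6.98 FPKM) was even within each cultivar, with 8.003, 7.56 and 8.96 CPM in Niue and 11.04, 11.2 and 9.45 CPM in Palau 10, without overlap but only 1.29-fold apart in mean. Taro_019126 (TARO_scaffold_000913, 74204 to 80529, minus strand, 16 exons, 2.79 FPKM), the gene model with the most exons of all 51, had 5.84, 10.03 and 7.497 CPM in Niue and 3.10, 6.12 and 13.4 CPM in Palau 10. Both Niue and Palau 10 were highest in replicate 3 there, and they overlapped. Taro_033408 (TARO_scaffold_002547, 35914 to 36548, plus strand, 2 exons, 12.5 FPKM) had 6.10, 5.42 and 4.39 CPM in Niue and 10.97, 9.76 and 1.85 CPM in Palau 10. Taro_051919 (TARO_scaffold_008529, 2319 to 3846, plus strand, 2 exons, 4.01 FPKM) had 4.001, 4.11 and 3.29 CPM in Niue and 8.62, 7.63 and 7.46 CPM in Palau 10, with all Palau 10 libraries higher, whereas Taro_033408 was low in Palau 10 replicate 3 alone. The median of the 13 was 6.42 CPM and their range 1.83 to 64.1 CPM. Palau 10 replicate 3 was the lowest Palau 10 library for 8 of the 13. Without it the rule, which then cannot lose any of the 13, added 2.

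The 11 gene models undetected in Niue were all low, with means of 2.22 to 4.73 CPM (1.75 to 8.60 FPKM) in Palau 10 and Sam-07. All 11 were under 5 CPM on average, as were 12.6% of the 15180 gene models at the limit in those cultivars. Niue was the least deeply sequenced cultivar, and 59.5 to 127 fragments per gene model would have been expected there at the level of the others. Taro_040231 (TARO_scaffold_003863, 51596 to 56818, minus strand, 4 exons, 3.73 FPKM) had 2.89, 3.02 and 3.06 CPM in Palau 10 and 6.31, 7.43 and 5.64 CPM in Sam-07, without overlap. Taro_008771 (TARO_scaffold_000295, 554097 to 556137, plus strand, 3 exons, 2.36 FPKM) had 3.97, 3.78 and 2.91 CPM in Palau 10 and 5.14, 7.43 and 2.94 CPM in Sam-07. Sam-07 replicate 2 was again the high library there, as it was for 6 of the 11. Taro_029337 (TARO_scaffold_001943, 146717 to 153082, plus strand, 7 exons, 3.25 FPKM) had 3.57, 1.99 and 4.26 CPM in Palau 10 and 2.52, 8.75 and 4.23 CPM in Sam-07. Taro_023655 (TARO_scaffold_001298, 79141 to 86643, plus strand, 12 exons, 2.32 FPKM) had 2.69, 3.30 and 5.47 CPM in Palau 10 and 1.44, 8.09 and 2.82 CPM in Sam-07, a 5.61-fold range within Sam-07. The cultivars overlapped for both, and the spread lay in Sam-07 more than in Palau 10. Taro_036108 (TARO_scaffold_003013, 28166 to 31579, plus strand, 3 exons, 5.88 FPKM) reached 11.8 CPM in Sam-07 replicate 2, the highest value of the 11, against 1.55, 1.65 and 2.77 CPM in Palau 10. Taro_014686 (TARO_scaffold_000616, 398029 to 398786, plus strand, 2 exons, 8.60 FPKM) was even across both cultivars, with 4.38, 4.33 and 3.13 CPM in Palau 10 and 4.78, 3.19 and 3.41 CPM in Sam-07. Taro_053723 (TARO_scaffold_010089, 21365 to 26845, minus strand, 6 exons, 3.88 FPKM) had 3.23, 5.36 and 1.49 CPM in Palau 10 and 2.52, 5.28 and 3.05 CPM in Sam-07. For these 3 the cultivars overlapped. Taro_007781 (TARO_scaffold_000250, 425662 to 428746, minus strand, 3 exons, 5.89 FPKM) was higher in every Palau 10 library (5.72, 4.81 and 4.62 CPM) than in Sam-07 (1.35, 2.04 and 2.23 CPM).

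The next comparison asked how well the cultivars that had a gene model agreed on its level, which the rule fixes only through the limit of 1 CPM. Of the 51 gene models, 38 (74.5%) had means within 2-fold of each other, and the median ratio of the higher to the lower mean was 1.42. All gene models at 1 CPM or more in the same libraries were within 2-fold in 90% to 93.4% of cases, at median ratios of 1.18 to 1.23, although most of these were more abundant. Libraries of the other cultivars did not overlap for 5 of the 27 undetected in Palau 10 (13% of all gene models at the limit), for 5 of the 13 undetected in Sam-07 (17% of all) and for 3 of the 11 undetected in Niue (9.36% of all). All 51 passed the filter on low counts and were tested with edgeR's quasi-likelihood test over 18865 gene models with all 9 libraries, with calls at a Benjamini-Hochberg adjusted p under 0.05. The 3 pairwise comparisons share libraries.

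Between Sam-07 and Niue, 1 of the 27 gene models undetected in Palau 10 was called, against 1.22% of all tested. It was Taro_031488, with 22.2 ± 0.337 CPM in Niue and 5.97 ± 1.78 CPM in Sam-07 (SD, n = 3), a log2 fold change of -1.96 (SE 0.24, edgeR adjusted p = 0.013). This call was lost without Niue replicate 2, 3 or 4 or Sam-07 replicate 1 or 3 (edgeR adjusted p up to 0.086), while the log2 fold change stayed between -2.07 and -1.88. Between Palau 10 and Niue, 1 of the 13 undetected in Sam-07 was called, against 1.81% of all tested. Taro_029547 had 17.4 ± 5.04 CPM in Niue and 4.57 ± 0.395 CPM in Palau 10, a log2 fold change of -2.08 (SE 0.30, edgeR adjusted p = 0.021). Leaving out Niue replicate 3 or 4 or Palau 10 replicate 1 or 2 ended this call (edgeR adjusted p up to 0.11). Taro_013560 (TARO_scaffold_000546, 303633 to 307555, minus strand, 3 exons, 10.2 FPKM) just missed it in the other direction. It had 2.30, 1.31 and 1.83 CPM in Niue and 7.81, 7.76 and 7.32 CPM in Palau 10, a log2 difference of 1.91 (SE 0.35, edgeR adjusted p = 0.054), and was called with DESeq2, with library size only, in a fit of the Palau 10 and Niue libraries alone and without Sam-07 replicate 2 (adjusted p 0.000994 to 0.0492). Between Sam-07 and Palau 10, 0 of the 11 undetected in Niue were called by edgeR, against 1.73% of all tested, with 3 at an unadjusted p under 0.05, as were 10.3% of all. The unadjusted counts were 6 of 27 for those undetected in Palau 10 (9.72% of all tested) and 4 of 13 for Sam-07 (11.5% of all). DESeq2 called 1 of the 11 undetected in Niue, against 759 of all 21689 gene models it tested. It was Taro_040231, with a log2 fold change of 1.18 (DESeq2 adjusted p 0.0334). The median size of the log2 difference was 0.61 for the gene models undetected in Niue, 0.42 for Palau 10 and 0.77 for Sam-07, against 0.30, 0.28 and 0.33 over all gene models tested. A gene model that was not called is not shown to be equal, since standard errors ran to 1.06 on the log2 scale (Taro_041838).

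**Figure D3:**
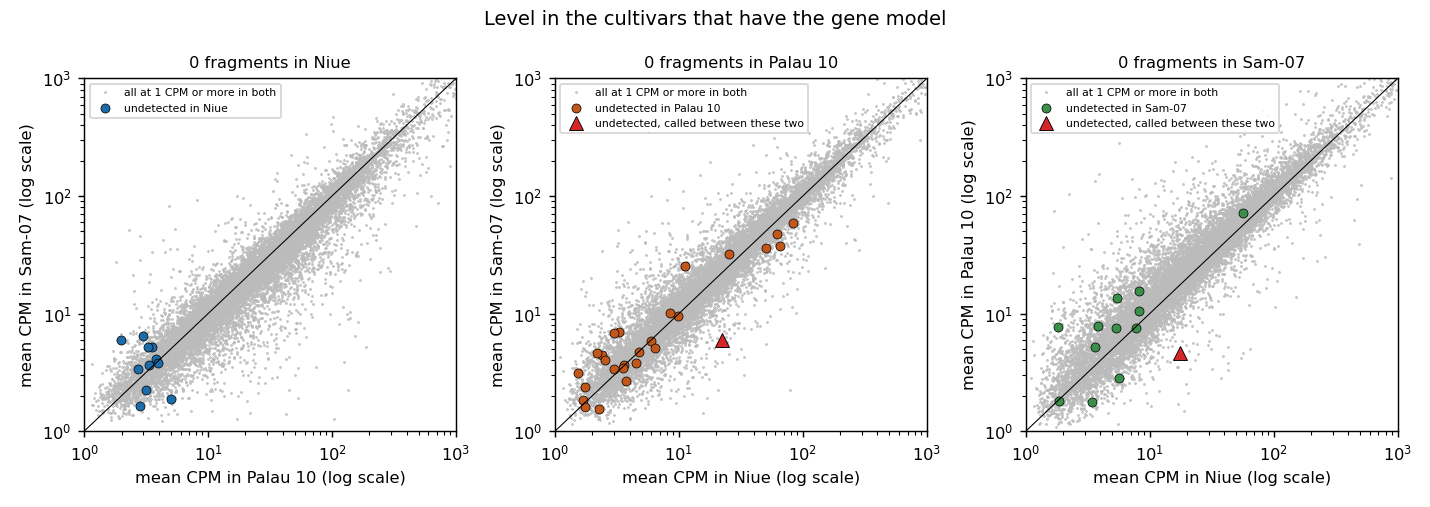
Mean CPM in the 2 cultivars that have each gene model (log scales, n = 3 libraries each), 1 panel per cultivar without fragments. Grey points are all gene models that met the limit in those 6 libraries and lie within the axes, circles the undetected gene models, and triangles those called between the plotted cultivars. Most circles lie near the line of equal level, and Taro_031488 (middle) and Taro_029547 (right) lie below it, higher in Niue.

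Exon structure was not part of the rule, although a short gene model yields fewer fragments at a given level. The 51 gene models had a median of 908 bp of exon (195 to 3445 bp), against 1604 bp for the 14874 gene models at 1 CPM in all 9 libraries. By length, 0.761% of gene models under 500 bp at the limit in Niue and Sam-07 were undetected in Palau 10, 0.292% of those from 500 to 1000 bp, 0.0943% from 1000 to 2000 bp and 0.115% above. The shares in the same length classes were 0.214%, 0.111%, 0.094% and 0.0378% for Sam-07 and 0.11%, 0.185%, 0.079% and 0% for Niue, so the shortest class had the highest share in Palau 10 and Sam-07 but not in Niue. The first 2 classes held only 2 of 936 and 3 of 2710 for Sam-07, and 1 of 912 and 5 of 2704 for Niue. A difference between cultivars in this cannot be read from so few. Levels differed as well, with a median of 5.89 FPKM for the 51 against 13.6 FPKM. At under 5 CPM in the other cultivars, 0.704% of gene models were undetected in Palau 10, 0.24% in Sam-07 and 0.576% in Niue. At 20 CPM or more, the shares were 0.0669%, 0.0129% and 0%. The median was 4 exons, against 5, and 16 of the 51 (31.4%) had 6 or more exons, against 45%. That share was 8 of 27 (29.6%) for Palau 10 and 3 of 13 (23.1%) for Sam-07, but 5 of 11 (45.5%) for Niue. A single exon was found in 1 of the 51 (1.96%) and in 8.54% of the gene models at 1 CPM in all 9 libraries. All but 1 of the undetected gene models thus had introns, and 27 lay on the plus strand and 24 on the minus strand.

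The 51 gene models were spread over 49 scaffolds. Only Taro_041769 with Taro_041770 and Taro_019125 with Taro_019126 shared a scaffold with another, and both pairs were neighbours without a gene model between them. On their scaffolds, 16 (31.4%) were the first or last gene model, against 26% of the gene models at 1 CPM in all 9 libraries, and 4 were alone on theirs, against 3.68%. Those 4 were Taro_040231 for Niue, Taro_048970 and Taro_052071 for Palau 10 and Taro_051919 for Sam-07. The median number of gene models on the scaffold was 10, against 12.

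The nearest gene model on each side was then examined in the cultivar without fragments. The 51 gene models had 82 such neighbours, of which 21 (25.6%) were expressed there, meaning at least 1 CPM in each of its 3 libraries. Around all gene models at the limit, with the 3 cultivars added up, the share was 49.8%. In this background a neighbour can count more than once. The share was 14 of 44 (31.8%) beside gene models undetected in Palau 10, 6 of 21 (28.6%) for Sam-07 and 1 of 17 (5.88%) for Niue. The neighbours were low in the other cultivars too, with 24 of 82 (29.3%) at 1 CPM in all 6 libraries there, against 48%. Of these 24, 20 (83.3%) were also at 1 CPM in every library of the cultivar without fragments, against 97.9% in the background. The other 4 were undetected gene models themselves, the pairs Taro_041769 with Taro_041770 and Taro_019125 with Taro_019126. The rule fixes their zeros, and without them the share was 20 of 20 (100%). No fragment in any of the 9 libraries was found for 31 of the 82 (37.8%), against 24.6%. The 4 undetected neighbours are counted here but not in the tests that follow, and without them the expressed share was 26.9% of 78.

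**Figure D4:**
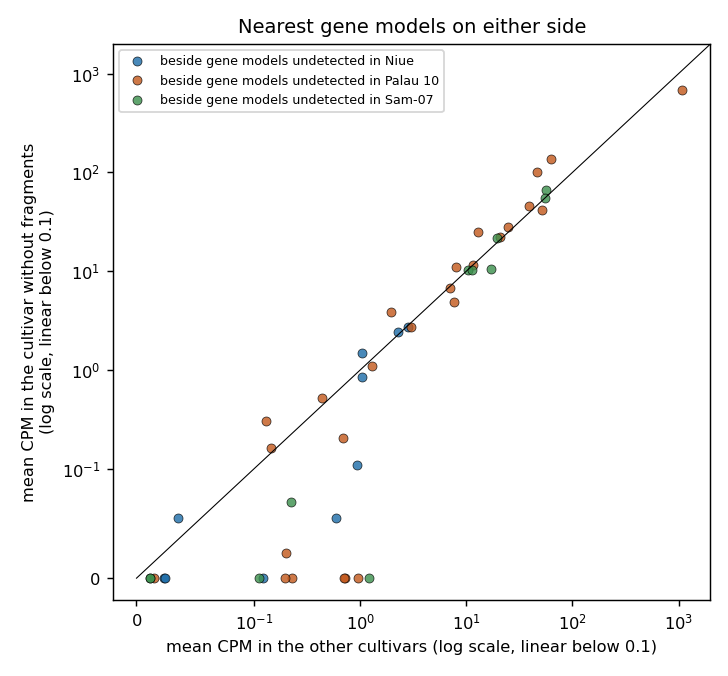
Nearest gene models on either side, with mean CPM in the other cultivars on the horizontal axis and in the cultivar without fragments on the vertical axis (log scales, linear below 0.1 CPM). Colours give the cultivar without fragments, and neighbours silent in all 9 libraries are left out, as are the 4 that were undetected gene models themselves, which would lie at 0. The other 20 neighbours expressed in the others lie on both sides of the line of equal level. Taro_022081, for example, lies above it (137 against 62.3 CPM) and Taro_041839 below it (10.45 against 17.1 CPM). Another 7 neighbours, with 0.122 to 1.20 CPM in the others, lie at 0.

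For 3 gene models both neighbours were expressed in the cultivar without fragments. Taro_033805 lies between Taro_033804, with 2.96 to 12.2 CPM in Palau 10 and 4.58 to 11.7 CPM in the others, and Taro_033806, with 397 to 849 CPM against 525 to 1531 CPM. Palau 10 thus had fragments on both sides of a gene model that reached 51.6 CPM on average elsewhere. Taro_022082 (TARO_scaffold_001154, 285160 to 289889, plus strand, 6 exons, 6.56 FPKM) lies 1175 bp from Taro_022081, which had 99.6 to 205 CPM in Palau 10 and 35.5 to 85.0 CPM in the others, and 7326 bp from Taro_022083 (1.86 to 7.25 CPM in Palau 10). Taro_013560, 3554 and 4149 bp from its neighbours, had 0 fragments in Sam-07 while Taro_013559 had 52.0 to 88.9 CPM and Taro_013561 19.2 to 25.5 CPM there. Another 3 were close to an expressed neighbour. Taro_050424 lies 15 bp from Taro_050423 on the opposite strand, which had 81.3 to 126 CPM in Palau 10 and 18.9 to 77.0 CPM in the others. Taro_030232 lies 824 bp from Taro_030231, with 6.11 to 14.8 CPM in Sam-07 and 7.75 to 13.2 CPM in the others. Taro_004243 shares 126 exon bases with Taro_004244 on the opposite strand, which had 7.25 to 13.1 CPM in Palau 10. Fragments on such shared bases were not counted for either gene model, and strand was not used in the counting.

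Neighbours were tested in the cultivar without fragments against the mean of the others (edgeR, all 9 libraries). Beside gene models undetected in Palau 10, 1 of 16 tested neighbours was called, against 1.93% of all tested, and for Sam-07 1 of 7, against 1.28%. Beside those undetected in Niue, 0 of 5 tested neighbours were called by edgeR or DESeq2, against 1.68% of all tested by edgeR, with 0 at an unadjusted p under 0.05 (1986 of all 18865). The unadjusted counts were 7 of 16 for Palau 10 (11.7% of all) and 1 of 7 for Sam-07 (9.77% of all). The called neighbours, Taro_029023 and Taro_051688, were themselves without a fragment in the cultivar. Taro_029023 lies 64 bp beyond Taro_029022 on the same strand and had 0.787, 1.15 and 0.732 CPM in Niue and 0.451, 1.10 and 1.53 CPM in Sam-07. It was at least 13.9-fold lower in Palau 10 (edgeR adjusted p = 0.018), and the call was lost without Niue replicate 3 or 4, Palau 10 replicate 1 or 2 or Sam-07 replicate 2 (adjusted p up to 0.060). Taro_051688 lies 2286 bp from Taro_051689 on the same strand and had 1.05, 1.15 and 1.46 CPM in Niue and 1.35, 0.756 and 1.42 CPM in Palau 10, at least 15.1-fold more than in Sam-07 (edgeR adjusted p = 0.013, 0.024 to 0.049 with any library left out). Taro_050423 and Taro_022081 were about 2-fold higher in Palau 10 than in the others but were not called (log2 differences of 1.08, SE 0.26, and 1.02, SE 0.30, edgeR adjusted p = 0.095 and 0.19). DESeq2 called Taro_050423 (adjusted p 0.014).

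A further look at weakly expressed neighbours was chosen after their values were seen. Of 18 neighbours with at least 10 fragments in the other cultivars but below 1 CPM in at least 1 of those libraries, 7 (38.9%) had no fragment in the cultivar that lacked the gene model beside them. Around all gene models at the limit, 401 of 12153 such neighbours (3.3%, or 2.6% to 4.19% by cultivar) had none. The 12153 add up the 3 cultivars, so a neighbour can count more than once. Their median level in the others was 0.679 CPM against 0.708 CPM for the 18. All 7 lay on the same strand as the undetected gene model, while 6 of the other 11 did. They were Taro_000632, Taro_015654, Taro_017141, Taro_029023 and Taro_031487 for Palau 10, Taro_051688 for Sam-07 and Taro_040913 for Niue. Taro_015654, 1860 bp from Taro_015655, had 0.197, 0.493 and 1.46 CPM in Niue and 0.360, 0.220 and 1.53 CPM in Sam-07, where 30.9 fragments were expected in Palau 10. Taro_015655 itself was likewise highest in Niue replicate 4 and Sam-07 replicate 3, with 1.38, 1.97 and 5.67 CPM in Niue and 1.98, 2.37 and 5.76 CPM in Sam-07. Taro_031487, 218 bp from Taro_031488, had 2.95, 0 and 1.28 CPM in Niue and no fragment in Sam-07 either. For Taro_040913, Taro_017141 and Taro_000632 only 3.26, 8.50 and 9.94 fragments were expected in the cultivar without fragments. Their counts of 0 are weaker evidence than those of Taro_015654, Taro_029023 and Taro_051688, where 30.9 to 45.3 were expected. For Taro_031487 30.7 were expected, but its fragments came from Niue replicates 2 and 4 only, so its 0 is weak evidence too. Same-strand neighbours made up 50 of the 82 positions beside the 51 gene models (61%), against 52.2% in the background.

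The pairs of undetected neighbours also lay on the same strand. Their zeros are fixed by the rule, so they are a description and add nothing to the counts above. Taro_041769 (TARO_scaffold_004236, 39095 to 39641, plus strand, 3 exons, 5.23 FPKM) and Taro_041770 lie 1022 bp apart on the same strand, and both had 0 fragments in Palau 10. Taro_041769 had 1.18, 1.48 and 2.56 CPM in Niue and 1.62, 3.14 and 2.35 CPM in Sam-07, lower than Taro_041770 also per length (5.23 against 11.8 FPKM). Taro_041771, the next gene model, 68576 bp on, had 37.2 to 46.6 CPM in Palau 10. Taro_019125 (TARO_scaffold_000913, 57562 to 63954, minus strand, 5 exons, 4.11 FPKM) and Taro_019126 lie 10249 bp apart on the minus strand, and both had 0 fragments in Sam-07. Taro_019125 had 4.39, 8.22 and 4.21 CPM in Niue and 1.55, 2.40 and 4.48 CPM in Palau 10. Both members of the pair were highest in Niue replicate 3 among the Niue libraries and in replicate 3 among those of Palau 10. The gene models on either side of this pair had no fragment in any library, so the stretch without fragments in Sam-07 covered 5 gene models and reached the end of the scaffold's gene models.

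**Figure D5:**
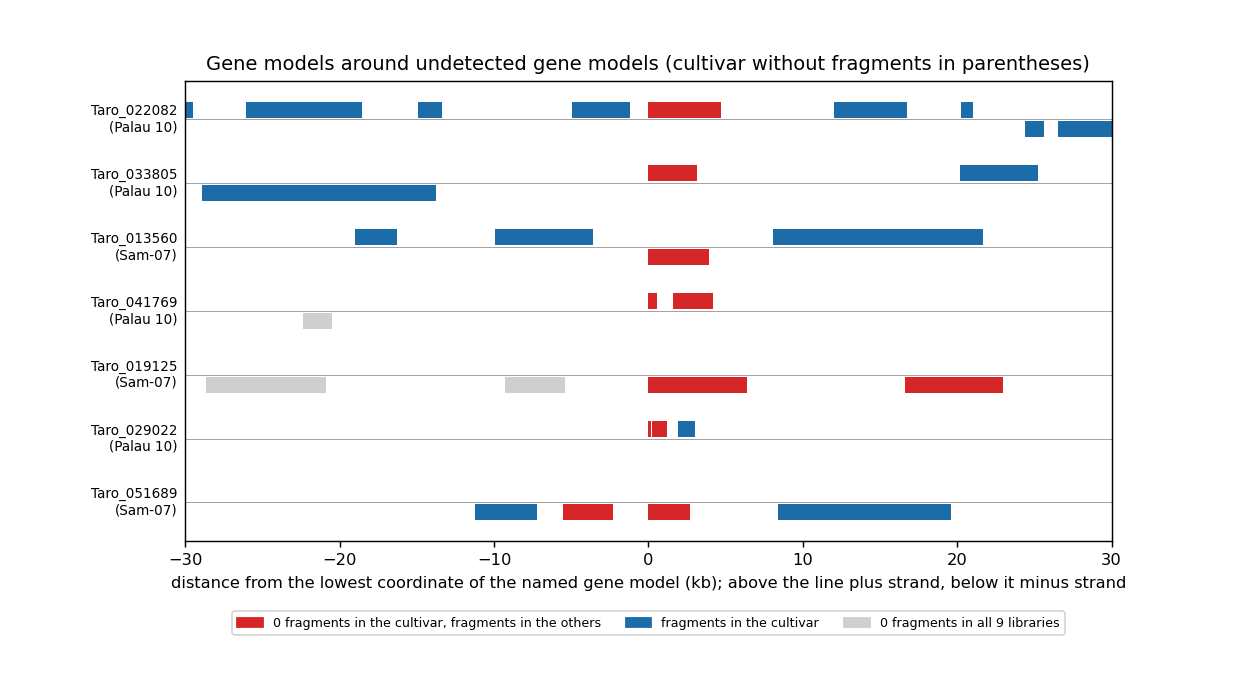
Gene models within 30 kb of 7 undetected gene models, drawn to scale by distance from the lowest coordinate of the named gene model, plus strand above the line and minus strand below. Red marks 0 fragments in the cultivar in parentheses with fragments in the others, blue fragments in that cultivar, and grey 0 fragments in all 9 libraries. The first 3 rows have blue gene models on both sides of 1 red one, and the last 4 rows have 2 red gene models next to each other on the same strand.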

How the data were processed

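The authors ran featureCounts 1.4.6-p4, per the file headers, and deposited whole-number counts of read pairs (fragments) on the exons of each gene model, without regard to strand. Fragments mapping to several places or overlapping more than 1 gene model were not counted, so near-identical gene copies are undercounted. Per the labels' protocols, libraries were made with a stranded TruSeq kit. The submitters' processing notes name bcl2fastq 1.8.4, Trimmomatic 0.33, STAR and Subread 1.4.6. No genome build is named (not given in the sources used here).

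CPM used the file totals. A count of 0 was given an upper limit of 3 fragments over the cultivar, and folds are the mean CPM of the other cultivars over that limit. Tests used edgeR 4.0.16 in R 4.3.3 (glmQLFit, glmQLFTest, two-sided) with TMM factors, filterByExpr (minimum count 10, total 15) and no term besides cultivar, with Benjamini-Hochberg adjustment over 18865 gene models. SEs come from the log2 fold change and its F statistic. The procedure was tested on simulated data. Other settings tried were DESeq2 1.42.0, library size alone, RLE factors, other filters, the replicate number as a block, other limits of the rule, thinning to the smallest library and leaving out each library. Gene models are neighbours by order of start on a scaffold. In a chi-square test on gene models of 20 or more fragments, all replicate pairs differed beyond sampling noise, and each library is 1 replicate.

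The gene models and comparisons were chosen with earlier results of these data known. Named are, per cultivar, the 8 undetected gene models with the highest mean CPM, those called, those whose neighbour is called or undetected as well, and those nearest to the limits; others were singled out after their values were seen. Sequences were not used here.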

Additional observations from a re-analysis of the deposited data

How the results depend on the processing

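Scaling CPM by TMM factors gave 11, 27 and 12 gene models for Niue, Palau 10 and Sam-07, and thinning every library to 5468567 fragments gave 13, 30 and 15. Of those found after thinning, 11, 26 and 11 were among the 11, 27 and 13 found without it. At a limit of 0.5 CPM there were 12, 34 and 22, and at 5 CPM 0, 7 and 3. Allowing up to 3 fragments in the cultivar gave 18, 35 and 23. Leaving out 1 library gave 11 to 16 for Niue, 27 to 30 for Palau 10 and 13 to 18 for Sam-07. The share of neighbours expressed in the cultivar without fragments (undetected neighbours not counted) ran over the left-out libraries from 5.26% to 19.2% for Niue, from 31.1% to 35.6% for Palau 10 and from 28.6% to 36.8% for Sam-07. For Niue it could not be computed at 5 CPM, where no gene model was left.

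Calls between the cultivars that have the gene models were few and unsteady. For those undetected in Niue, DESeq2 called 1, against 759 of all 21689 gene models it tested. Leaving out a library gave 0, against 156 to 402 over all gene models. Undetected in Palau 10, 0 to 1 was called with a library left out, against 91 to 341 over all gene models. Undetected in Sam-07, 2 were called with library size only, with DESeq2 and in a fit of Palau 10 and Niue alone. Over all gene models these settings called 338 of 18865, 711 of 21151 and 287 of 18285. With a library left out, 0 to 2 were called, against 156 to 423 over all gene models. Among neighbours of those undetected in Palau 10, DESeq2 called 3, against 783 of all 21689 gene models. The filter of 5 CPM in 3 libraries left 0, against 181 of all 14106. Leaving out a library gave 0 to 1, against 182 to 433 over all gene models. Among neighbours of those undetected in Sam-07 the 5 CPM filter left 0, against 113 of all 14106. The cause of these changes was not tested, except that the filter removed the low neighbours from the test.

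With the replicate number as a block, 0 gene models undetected in Palau 10 were called, 0 undetected in Sam-07, and 0 neighbours of either. The block also cut the calls over all 18865 gene models. They fell from 230 to 9 between Sam-07 and Niue and from 341 to 1 between Palau 10 and Niue. Against the other cultivars they fell from 365 to 37 for Palau 10 and from 241 to 13 for Sam-07. Over 7 same-numbered pairs of libraries of different cultivars, deviations from the cultivar means correlated at -0.43 to 0.45, and 3 pairs exceeded 0.1. Between Palau 10 and Sam-07 the values were 0.080, 0.45 and 0.25 for replicates 1, 2 and 3, and replicates 2 and 3 correlated best with their own number. Niue replicate 2 correlated at 0.31 with that of Palau 10 and at 0.029 with that of Sam-07, and Niue replicate 3 at -0.16 and -0.43. Niue replicate 2 correlated best with its own number among the Palau 10 libraries but not among those of Sam-07. Not every pair exceeded 0.1 in any of these comparisons. Deviations from a mean of 3 libraries depend on one another, so these values do not settle whether libraries were paired. The main tests took the samples to share only a number. Fewest fragments were expected for the gene models undetected in Niue, at least 59.5, with a median of 104. The medians were 204 for Palau 10 and 242 for Sam-07. How much of this came from depth and how much from level was not tested.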
